A study of Mus musculus with 9 samples.

Results

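Cell cycle and proliferation genes were followed in the urogenital sinus of mouse fetuses and newborns on 9 Affymetrix arrays. The genes came from a list of 50 symbols, named by function and drawn up with earlier results of these data known; no measured value entered the rule itself. Of these, 49 had a probe set annotated to that symbol alone, out of 18194 genes named in this way on the array. Where a gene had several such probe sets, the one with the highest mean log2 signal over the 9 arrays stood for it. The genes fell into 3 roles: 13 genes that prepare or carry out DNA synthesis (S phase genes), 8 that control entry into S phase (G1/S genes), and 28 that are made or used mainly in G2 and mitosis (mitotic genes).

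All mice were of the C57BL/6 strain. Dams received vehicle (corn oil stripped of tocopherol, labelled Control), the synthetic estrogen diethylstilbestrol (DES) at 0.2 µg/kg/day, or bisphenol A (BPA), a weakly estrogenic building block of plastics, at 20 µg/kg/day, each from embryonic day 13 to embryonic day 16. The urogenital sinus was dissected free of bladder, urethra and the ducts at embryonic day 17 (E17), embryonic day 18 (E18) or the day of birth (P0), from males and females per the labels' protocols. Each of the 9 combinations of agent and age had 1 array. The labels give neither the number of animals or litters behind an array nor the sex, so the p-values cover the spread among these 9 arrays alone, part of which may be technical. With 1 array per combination, the fits of age and agent cannot separate that spread from an age course that differs between agents.

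A cell enters the division cycle when D-type cyclins with Cdk4, and then E-type cyclins with Cdk2, phosphorylate the retinoblastoma proteins and free E2F transcription factors. The E2F factors switch on genes that load the Mcm helicase onto replication origins and make deoxynucleotides, whereas later genes of spindle, kinetochore and checkpoint are switched on in G2 by B-Myb, Foxm1 and the MuvB complex, which acts through a promoter element named CHR. In the late fetal urogenital sinus, epithelial cells divide and grow out as buds into the surrounding mesenchyme.

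These regulatory elements could be read in the promoters of the genes themselves, taken from RefSeq (build GRCm38.p6) as windows of 300 bases, from 250 bases before to 50 bases after the annotated start. Of the 50 listed genes, 40 had at least 1 such window. The CHR element, TTTGAA on either strand, lay in 16 of 23 mitotic promoters (69.6%), in 1 of 13 S phase promoters (7.69%), in 0 of 6 G1/S promoters, and in 17.9% of all 32851 promoters. An E2F site, spelled TTTCCCGC, TTTCGCGC, TTTGCCGC or TTTGGCGC on either strand, lay in 6 of 13 S phase promoters (46.2%), in 1 of 23 mitotic promoters (4.35%), in 1 of 6 G1/S promoters (16.7%), and in 2.26% of all promoters. The S phase genes with such a match were Mcm3, Mcm5, Mcm6, Mcm7, Cdt1 and Cdc6, and the mitotic gene was Cdk1. The CCAAT box, bound by NF-Y, was found in 76.9% of S phase and 78.3% of mitotic promoters but in 2 of 6 G1/S promoters (33.3%), against 37.4% of all promoters. A match of letters is a description of the window and not evidence of binding.

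The promoters of 4 genes are given because these genes, 2 of each role, had the lowest P0 values relative to E17 among the S phase genes and among the mitotic genes with a RefSeq window. Capitals mark the matches, none of which overlap here, and each sequence runs 5′ to 3′ on the strand of its gene. Cdc6 (chr11:98907901-98908200, plus strand) holds 1 E2F match, read on the opposite strand. Rrm2 (chr12:24708004-24708303, plus strand) holds 1 CCAAT box. Bub1 (chr2:127831810-127832109, minus strand) holds 2 CCAAT boxes, 1 of them reversed, and TTCGAA, a variant of the CHR element that was searched only after the sequences had been seen. Cenpf (chr1:189688037-189688336, minus strand) holds 2 CCAAT boxes and a CHR element just past the start. The variant lay in 3 of 23 mitotic promoters (13%), that of Bub1 among them, and in 1 of 13 S phase promoters (7.69%, Mcm7). It lay in 0 of 6 G1/S promoters and in 1.56% of all promoters.
Cdc6: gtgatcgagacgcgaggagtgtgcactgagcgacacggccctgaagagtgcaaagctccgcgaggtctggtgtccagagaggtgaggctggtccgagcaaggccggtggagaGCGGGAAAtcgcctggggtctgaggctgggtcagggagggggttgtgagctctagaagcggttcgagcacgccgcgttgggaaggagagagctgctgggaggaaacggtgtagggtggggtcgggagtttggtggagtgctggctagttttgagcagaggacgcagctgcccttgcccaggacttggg
Rrm2: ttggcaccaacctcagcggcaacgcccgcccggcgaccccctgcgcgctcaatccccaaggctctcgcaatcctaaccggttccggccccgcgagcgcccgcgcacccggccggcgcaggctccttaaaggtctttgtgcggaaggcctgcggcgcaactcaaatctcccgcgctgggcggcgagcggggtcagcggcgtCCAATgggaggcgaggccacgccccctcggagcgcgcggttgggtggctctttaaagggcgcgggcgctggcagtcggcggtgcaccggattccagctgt
Bub1: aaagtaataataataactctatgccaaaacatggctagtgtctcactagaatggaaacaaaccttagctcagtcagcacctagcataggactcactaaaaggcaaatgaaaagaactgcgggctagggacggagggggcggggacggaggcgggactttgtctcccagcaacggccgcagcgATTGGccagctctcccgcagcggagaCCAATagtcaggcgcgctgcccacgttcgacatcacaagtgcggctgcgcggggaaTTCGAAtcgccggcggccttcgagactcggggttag
Cenpf: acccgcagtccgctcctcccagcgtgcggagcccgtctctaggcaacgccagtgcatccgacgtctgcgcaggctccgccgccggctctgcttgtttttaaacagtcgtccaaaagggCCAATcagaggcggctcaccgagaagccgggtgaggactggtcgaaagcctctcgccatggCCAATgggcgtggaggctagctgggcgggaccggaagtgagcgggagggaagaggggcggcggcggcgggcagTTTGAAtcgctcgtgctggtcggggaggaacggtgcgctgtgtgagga

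The arrays were scaled to each other by quantile normalisation, and signals given here are on that linear scale. Differences are in log2 units of the signal plus 5.46, with the standard error (SE) of a limma fit with age and agent as factors, made over 13400 genes with a mean log2 value of at least 5.54. All 49 genes passed that filter. Their mean signal over the 9 arrays ran from 48.2 (Tyms) to 4881 (Ccnd2), and only Cdc6, Tyms and Cdc25c were under 200. Of the markers fixed for the tissue, 10 of 10 for urogenital epithelium (Shh and Foxa1 among them) and 5 for its mesenchyme (Hoxd13 and Hoxa13 among them) were measured above the filter. The summed signal of squamous epidermis markers was 21968 on the BPA P0 array and 8652 on the BPA E18 array, against 1510 to 2883 on the other 7, and that of gonad markers was 3895 on the BPA P0 array against 626 to 714 elsewhere.

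Between E17 and birth most cell cycle genes had lower signals, but only 1 of the differences passed the test after adjustment over all genes. At P0, 45 of 49 lay below their E17 level, with a median difference of -0.15, whereas 6659 of all 13400 genes did, with a median of 0.00. Only Mcm4 fell past the threshold of an adjusted p of 0.05 (limma, Benjamini-Hochberg over all genes tested), where 0.157% of all genes were called lower and 0.463% higher. At an unadjusted p under 0.05, 16 of the 49 were lower and 0 higher, against 9.78% of all genes lower and 9.42% higher. For 18 of the 49, all 3 P0 arrays lay below all 3 E17 arrays, a pattern found in 9.51% of all genes, and 12 of them lay below all 6 prenatal arrays, against 3.92%. The opposite pattern, all 3 P0 arrays above all 6 prenatal ones, was seen for 0 of 49, against 4.32% of all genes.

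**Figure D1:**
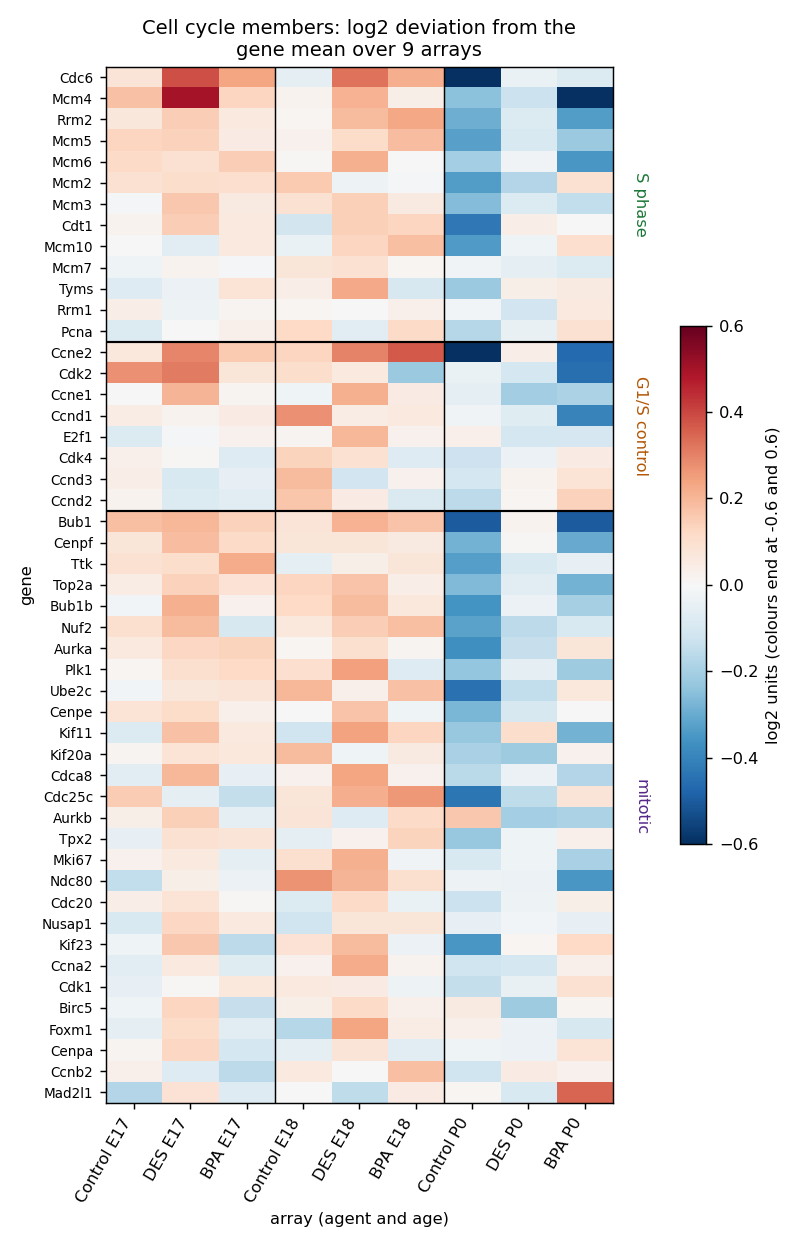
Log2 deviation of each of 49 cell cycle genes from its own mean over the 9 arrays, with arrays in columns by age and then agent, and genes in rows by role and then by P0 minus E17 difference; colours end at -0.6 and 0.6. Blue, for values under the mean, gathers in the 3 P0 columns, most deeply for Control P0. That array was the lowest of the 9 for 24 of the 49 genes, against 20.7% of all genes.

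In the heat map of all 49 genes the columns of E17 and E18 share no such shift. Between E17 and E18, 33 of 49 lay above, with a median of 0.03, and 0 were called (0% of all genes). At an unadjusted p under 0.05, Cdk2 alone was lower (1.31% of all genes) and 0 were higher (1.89%). Between E18 and P0, 47 of 49 lay below, with a median of -0.18 against -0.01 over all genes. None of these was called by limma after adjustment (0% of all genes, smallest adjusted p 0.179), while 18 were lower and 0 higher at an unadjusted p under 0.05, against 8.27% of all genes lower and 6.04% higher. For 17 genes all 3 P0 arrays lay below all 3 E18 arrays, against 7.52% of all genes.

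Among the S phase genes, all 13 lay below their E17 level at P0, with a median of -0.23. Mcm4, a subunit of the hexameric helicase that unwinds DNA, gave the only call. Its signals were 1993, 2491 and 1930 at E17 (Control, DES and BPA in that order, as in what follows), 1788, 2039 and 1808 at E18, and 1486, 1613 and 1089 at P0. Every P0 array lay below every prenatal array, and the BPA P0 array was the lowest. From a mean of 2138 ± 308 to 1396 ± 273 (SD, n = 3 arrays), Mcm4 fell by 0.62 ± 0.10 log2 units (SE; 95% interval -0.84 to -0.41; limma adjusted p = 0.0285).

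The call on Mcm4 was a narrow one. It was kept without the DES P0 or the BPA E18 array (adjusted p 0.016 and 0.0296). It was lost without any other single array: Control E17 (0.133), Control E18 (0.0554), Control P0 (0.0748), DES E17 (0.0791), DES E18 (0.0509), BPA E17 (0.111) or BPA P0 (0.111), with the difference between -0.72 and -0.50 in each of these fits. A further Mcm4 probe set gave -0.27, where the chosen one, of a kind marked by the maker as prone to cross-hybridise, gave -0.62. Probe sets of that kind stood for 8 of the 49 genes: Mcm4, Mcm5, Rrm2, Ccne1, Cdk4, Aurkb, Cdc20 and Cdc25c. With all probe sets of each gene averaged, Mcm4 was still called, where 0.399% of all genes were. The call was lost without a filter and without the intensity trend, and was kept in 9 of 22 alternatives.

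Of the other subunits of the same helicase ring, Mcm5 had signals of 2058, 2074 and 1945 at E17, 1917, 2030 and 2142 at E18, and 1498, 1764 and 1613 at P0. All P0 values were under all prenatal ones, and the difference was -0.32 ± 0.08 (limma adjusted p = 0.0877). It was smaller on a further Mcm5 probe set (-0.10) and with all Mcm5 probe sets averaged (-0.034). Mcm6 (-0.31 ± 0.08) and Mcm3 (-0.23 ± 0.07) also had no overlap between P0 and the prenatal arrays, with adjusted p values of 0.11 and 0.151. For Mcm2 (-0.24 ± 0.11) the BPA P0 array, at 964, lay just under the E17 values of 966 to 976, while Control P0 was at 717. Mcm7 had -0.05 ± 0.06 on its chosen probe set and -0.37, 0.01 and 0.13 on 3 further ones. The order of the 6 subunits of this complex thus depends on the probe set taken, as for Mcm4.

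For the factors that load this ring onto origins, Cdc6 and Cdt1, the size of the difference depended on the Control P0 array. For Cdc6 the signals were 172, 214 and 192 (E17), 156, 205 and 190 (E18), and 75, 158 and 153 (P0). Control P0 was less than any other array by a wide margin, and the DES and BPA values at P0 fell inside the range of Control before birth or just under it. The fitted difference was -0.63 ± 0.18 (limma adjusted p = 0.116), and without Control P0 it was -0.39. Cdt1 read 1139, 1244 and 1169 at E17, 1041, 1239 and 1225 at E18, and 832, 1153 and 1121 at P0. Here too Control P0 was alone at the bottom, and the difference of -0.21 ± 0.09 became -0.11 without it. Both genes were lower at P0 than at E17 and at E18 under each agent. For Cdc6 every P0 array lay below every E17 array. Mcm10, which acts in helicase activation, had -0.09 ± 0.13, with 206, 197 and 214 at E17, 200, 225 and 234 at E18, and 161, 202 and 221 at P0, so that Control P0 again stood lowest.

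The genes of deoxynucleotide supply differed among themselves. Rrm2, the cell-cycle-regulated subunit of ribonucleotide reductase, had 1857, 1960 and 1845 at E17, 1787, 2024 and 2085 at E18, and 1446, 1671 and 1404 at P0. No P0 value reached a prenatal one, and the difference was -0.33 ± 0.08 (limma adjusted p = 0.0883), with -0.28 and -0.04 for its further probe sets. Rrm1, the large subunit of that enzyme, had 1523, 1452 and 1500 at E17, 1494, 1483 and 1512 at E18, and 1464, 1369 and 1542 at P0. These values overlapped at all ages, and the 95% interval of the difference was -0.20 to 0.13. Tyms, thymidylate synthase, was too dim to be measured closely (-0.04 ± 0.23).

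Pcna, the sliding clamp of the replication fork, was nearly level. Its signals were 4098, 4358 and 4437 at E17, 4719, 4157 and 4702 at E18, and 3860, 4216 and 4635 at P0. The ages overlapped, and the difference was -0.02 ± 0.07 with a 95% interval of -0.18 to 0.14, which does not reach the size measured for Mcm4.

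**Figure D2:**
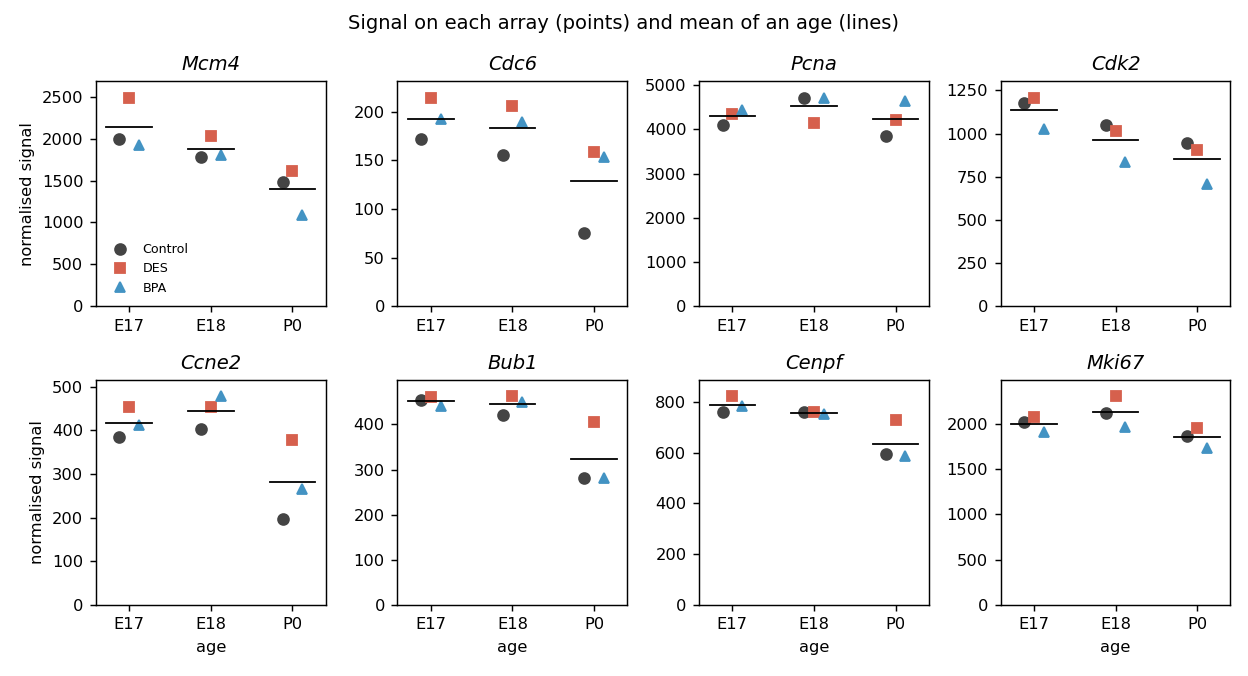
Normalised signal (linear axis from 0) of 8 cell cycle genes on each of the 9 arrays, with circles for Control, squares for DES, triangles for BPA and a line at the mean of each age (n = 3 arrays). The P0 arrays lie lowest for Mcm4, Ccne2, Bub1 and Cenpf, Control P0 is alone at 75 for Cdc6, BPA is lowest at every age for Cdk2, and Pcna keeps its level.

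Among the 8 genes that control entry into S phase, 6 lay below their E17 level at P0, with a median of -0.12, and 0 were called. The E-type cyclins and their kinase had the larger values. Ccne2, an activator of Cdk2, had 385, 454 and 412 at E17, 404, 454 and 478 at E18, and 198, 379 and 266 at P0. The DES P0 array lay just under the lowest prenatal value, while Control P0 and BPA P0 were far below, and the difference was -0.61 ± 0.15 (limma adjusted p = 0.0877). Without the DES P0 array it was -0.81, with an adjusted p of 0.0112.

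Cdk2 itself had 1176, 1208 and 1025 at E17, 1047, 1013 and 834 at E18, and 945, 904 and 709 at P0. It was lower at each later age under each agent, and the BPA array was the lowest at each age. The difference between P0 and E17 was -0.42 ± 0.08 (limma adjusted p = 0.0589). It was -0.42 without DES P0 (adjusted p 0.0292), and -0.19 when averaged with a further Cdk2 probe set whose mean signal was only 1.24. Ccne1, the other E-type cyclin, had 469, 542 and 474 at E17, 462, 546 and 486 at E18, and 452, 406 and 410 at P0, a difference of -0.22 ± 0.11 with no overlap between P0 and prenatal arrays.

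The D-type cyclins, which link growth signals to the cycle, did not share 1 direction. Ccnd1 had 2843, 2793 and 2851 at E17, 3335, 2840 and 2868 at E18, and 2714, 2621 and 2081 at P0. The P0 arrays were the lowest 3, BPA P0 most of all, and the difference of -0.20 ± 0.09 became -0.10 without BPA P0. Ccnd3 had 2242, 2046 and 2102 at E17, 2483, 2011 and 2219 at E18, and 2023, 2213 and 2303 at P0, with overlap throughout (0.03 ± 0.09).

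Ccnd2 was likewise level (0.04 ± 0.09), as were Cdk4, the partner of these cyclins (-0.02 ± 0.08), and E2f1, a transcription factor of S phase genes (-0.04 ± 0.11). The signals of Cdk4 were 2460, 2423 and 2283 at E17, 2647, 2568 and 2281 at E18, and 2211, 2352 and 2494 at P0. Under Control and DES the P0 value was the lowest of the agent's 3, and under BPA it was the highest.

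Among the 28 mitotic genes, 26 lay below their E17 level at P0, with a median of -0.14, and 0 were called. At an unadjusted p under 0.05, 7 were lower. Bub1, a kinase of the spindle checkpoint, had 454, 460 and 440 at E17, 422, 462 and 450 at E18, and 281, 406 and 281 at P0. The 6 prenatal values were close together and above all P0 values, of which DES was the highest. The difference was -0.50 ± 0.12 (limma adjusted p = 0.0904), -0.65 without DES P0 (adjusted p 0.0143), and -0.11 when a dimmer probe set of Bub1, which by itself gave 0.27, was averaged in.

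Cenpf, a kinetochore protein, had 762, 823 and 785 at E17, 761, 762 and 752 at E18, and 594, 728 and 585 at P0. P0 lay under the prenatal range, with DES P0 the nearest to it (-0.32 ± 0.09, limma adjusted p = 0.13). Top2a, the topoisomerase that untangles sister chromatids, had 2027, 2161 and 2086 at E17, 2149, 2210 and 2018 at E18, and 1636, 1880 and 1614 at P0. It too showed no overlap between P0 and prenatal arrays (-0.29 ± 0.07, limma adjusted p = 0.0877).

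Ttk, a further checkpoint kinase, had 268, 272 and 295 at E17, 242, 258 and 265 at E18, and 199, 236 and 243 at P0. The E17 and P0 values did not overlap, although BPA P0 exceeded Control E18 (-0.30 ± 0.11, limma adjusted p = 0.193). Bub1b, a partner of Bub1 in the checkpoint, had -0.27 ± 0.10 and lay below all prenatal arrays at P0. Plk1, a mitotic kinase, and Cenpe, a kinetochore motor, had -0.24 ± 0.11 and -0.20 ± 0.11 with P0 below E17 on every array.

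Other mitotic genes had smaller values. Foxm1, a transcription factor of this gene class, had 291, 327 and 290 at E17, 268, 357 and 312 at E18, and 310, 295 and 283 at P0. Its ages overlapped, with a 95% interval of -0.30 to 0.24, but dimmer Foxm1 probe sets gave 0.31 and 0.36, and the average of all its probe sets gave 0.27. Cenpa, the centromeric histone, had 917, 988 and 842 at E17, 870, 956 and 868 at E18, and 890, 886 and 959 at P0, and its interval was -0.21 to 0.20. Mki67, whose protein is the Ki-67 marker of dividing cells, had -0.11 ± 0.07 against E17, with P0 below E17 under each agent. Against E18 it had -0.20 ± 0.07 (limma adjusted p = 0.256), with all P0 arrays below all E18 arrays. The kinase Cdk1 (-0.04 ± 0.08), its cyclins Ccna2 (-0.04 ± 0.09) and Ccnb2 (0.05 ± 0.10), and the checkpoint gene Mad2l1 (0.15 ± 0.12; 95% interval -0.12 to 0.41) did not pass the test.

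The remaining 14 mitotic genes lay between those given: Nuf2 (-0.25) and Aurka (-0.25) at one end and Birc5 (-0.04) at the other. Between them came Ube2c, Kif11, Kif20a, Cdca8, Cdc25c, Aurkb, Tpx2, Ndc80, Cdc20, Nusap1 and Kif23. These encode spindle motors, mitotic kinases and their partners, kinetochore parts and components of protein breakdown at mitotic exit.

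**Figure D3:**
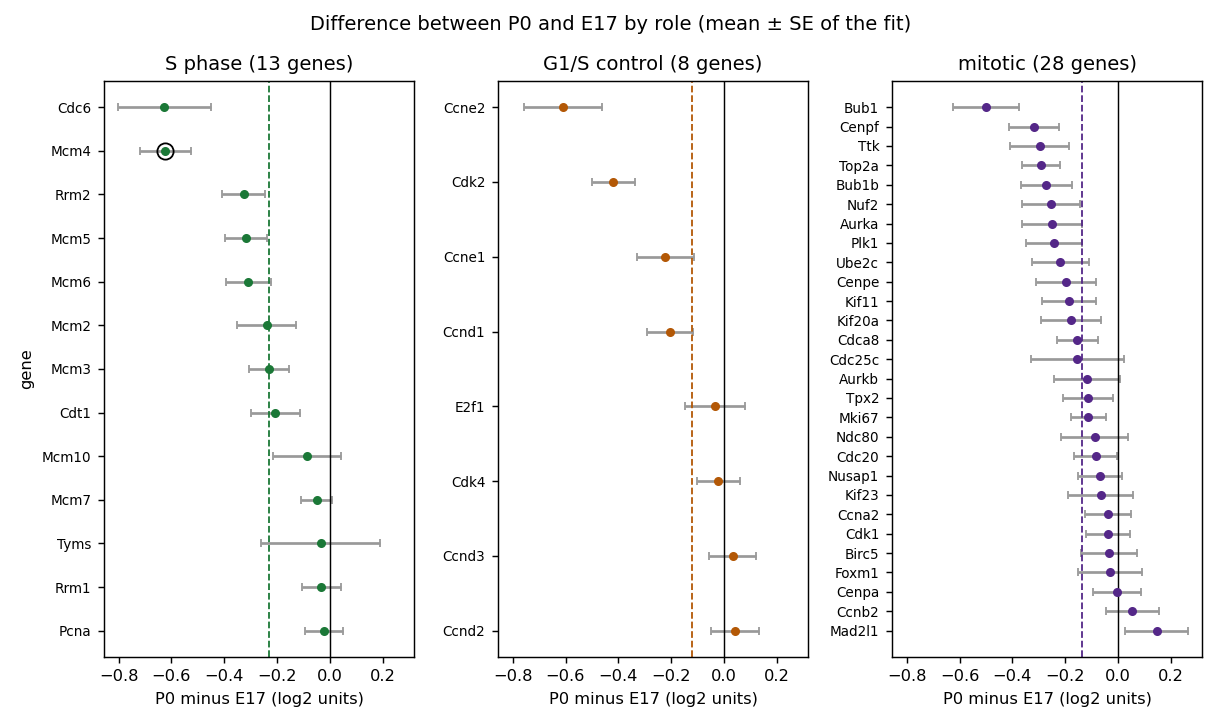
Fitted P0 minus E17 difference (log2 units, horizontal) of each cell cycle gene, with its SE as a bar, in panels by role; the dashed line is the role's median and the ring marks Mcm4, which passed the adjusted threshold. The medians are -0.23 for S phase, -0.12 for G1/S and -0.14 for mitotic genes, and the single genes of each panel spread far more widely than the medians differ.

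The S phase and mitotic genes were set side by side because they mark different stages of the cycle. At P0 against E17, 8 of 13 S phase genes lay below -0.2, against 9 of 28 mitotic and 4 of 8 G1/S genes. The S phase median was 0.09 log2 units lower than the mitotic one. That gap kept its direction in 23 of 24 alternative settings, but its size did not hold up. Without the Control P0 array it was 0.01 in the other direction. It was -0.02 when all probe sets of each gene were averaged, where the S phase median was -0.13. Against E18, both medians were -0.18. In the lists of related genes that follow, the order was the opposite. The S phase and mitotic genes were thus not told apart by the size of their difference at birth.

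**Figure D4:**
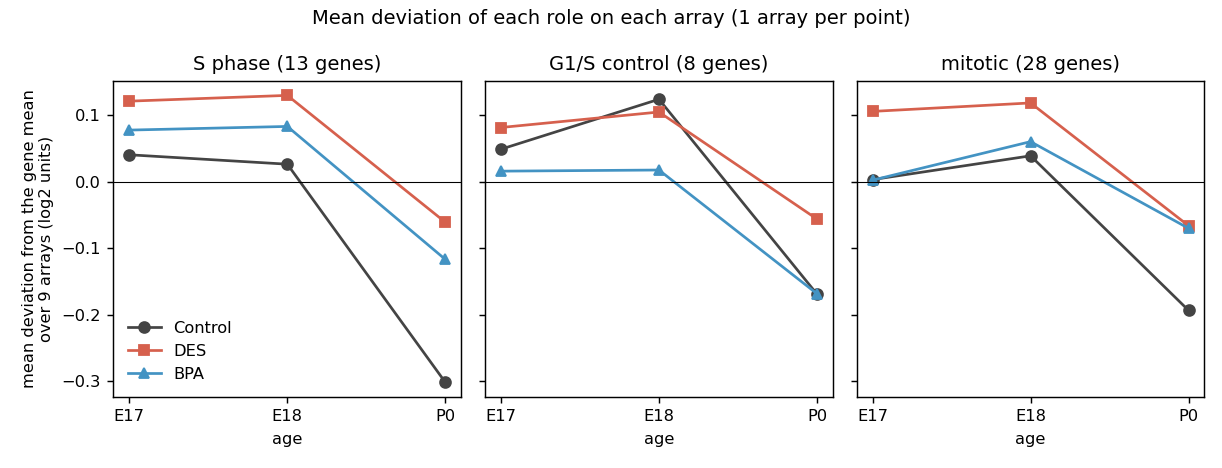
Mean deviation (log2 units, vertical) of the S phase, G1/S and mitotic genes from their own mean over the 9 arrays, by age (horizontal) and agent, with 1 array per point and no error bar. The 3 P0 arrays lie below the prenatal arrays of every agent in each panel; Control P0 is the lowest for S phase genes, at -0.30, and DES P0 is nearest to 0, at -0.06.

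Read agent by agent, with 1 array for each age and no replicate, P0 lay below E17 for 41 of 49 genes under Control, 44 under DES and 33 under BPA. Of all 13400 genes, 6740, 6791 and 6305 lay below. The medians of the 49 were -0.18, -0.16 and -0.06, against -0.003, -0.004 and 0.025 over all genes. For the S phase genes they were -0.34 under Control, -0.11 under DES and -0.08 under BPA, and for the mitotic genes -0.17, -0.17 and -0.04. The plot of mean deviations shows the same arrays by role: the S phase genes averaged -0.30 on Control P0, -0.06 on DES P0 and -0.12 on BPA P0, against 0.03 to 0.13 on the prenatal arrays. P0 lay below E17 under each of the 3 agents for 26 of 49 genes, against 18.5% of all genes. Whether the age course differed between agents was tested by giving each agent its own linear age slope. None of the 49 genes was called for BPA (limma smallest adjusted p 0.557, for Kif23, 1 gene at an unadjusted p under 0.05; 0.0522% of all genes called) or for DES (smallest 0.673, 0 genes unadjusted; 0%).

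Related genes of the cycle showed a similar spread. Of 37 further S phase genes, 24 lay below their E17 level at P0 (median -0.08), and of 53 further mitotic genes, 43 did (median -0.14), with 0 called in either list. The largest differences were those of Cdc7, the kinase that fires origins (-0.59 ± 0.18, limma adjusted p = 0.139), Rpa1, which coats single-stranded DNA (-0.39 ± 0.08, 0.0589), Cep55, which acts in the final cut between daughter cells (-0.52 ± 0.13, 0.089), and the cyclin Ccnf (-0.50 ± 0.14, 0.112). For Rpa1 the E17 signals were 2726, 2714 and 2734 and the P0 signals 1812, 2268 and 2163, which did not overlap.

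Of 14 further E2F and Myb factors, 12 lay below (median -0.20, 0 called), led by the repressors E2f8 (-0.45 ± 0.12, adjusted p 0.11) and E2f7 (-0.44 ± 0.11, adjusted p 0.0867). Of 21 genes that hold the cycle back, 11 lay below and 10 above (median -0.08, 0 called). Gadd45b, a stress-induced brake, had 0.46 ± 0.15 and Cdkn1b, the p27 inhibitor of Cdk2, had -0.41 ± 0.12, with adjusted p values of 0.153 and 0.134. Against E18, 14 of the 21 lay below, with a median of -0.065.

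The make-up of the dissected tissue also differed between ages. Summed over its 13 markers, all named, the skeletal muscle signal lay between 11811 and 15147 at E17, between 16729 and 18393 at E18, and between 18132 and 22254 at P0. Of these 13 markers, 9 were called higher at P0 than at E17 after adjustment, against 0.463% of all genes, and their median difference was 1.16. Leukocyte markers (11 of 11 named) summed to 2712 to 2902 at E17 and 3078 to 3858 at P0, endothelial markers (9 of 9) to 3705 to 3817 and 4229 to 4751, and fibroblast matrix markers (9 of 10) to 63707 to 65240 and 67690 to 70534. Urogenital epithelium markers (10 of 10) summed to 14529 to 18009 at E17 and 12680 to 15740 at P0. Gene by gene, 8 of these 10 lay below their E17 level at P0, with a median of -0.15. At an unadjusted p under 0.05, 3 were lower, against 9.78% of all genes, and 0 were called after adjustment. Against E18, 9 of the 10 lay below, also with a median of -0.15. Smooth muscle markers (10 of 10) lay below their E17 level at P0 for all 10, with a median of -0.45 and 5 at an unadjusted p under 0.05. Squamous epidermis markers (10 named, 9 tested) lay above for all 9, with a median of 1.16 and 3 at an unadjusted p under 0.05. None of these 19 smooth muscle and squamous epidermis markers was called after adjustment. The part of these shifts in the lower cell cycle signals was not tested, and in bulk tissue fewer dividing cells and less RNA per cell cannot be told apart.

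DES and BPA were each set against Control over the 3 ages; both comparisons use the same 3 control arrays, so their values are not independent of each other. With DES, 40 of 49 cell cycle genes lay above Control, with a median of 0.11, against 7581 of 13400 genes and a median of 0.02. None was called by limma after adjustment (0% of all genes, smallest adjusted p 0.776), and 5 were higher and 0 lower at an unadjusted p under 0.05, against 4.4% and 1.96% of all genes. Among the mitotic genes 25 of 28 lay above (median 0.11), among the S phase genes 11 of 13 (median 0.13), and among the G1/S genes 4 of 8 (median 0.00).

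The DES array lay above the Control array at each of the 3 ages for 25 of 49 genes, against 17.4% of all genes, and below at each age for Rrm1 and Ccnd1, against 10.7%. Of the 25, 17 were mitotic, Kif11, Bub1, Cenpf and Mki67 among them, and 7 were S phase genes. Of the further mitotic genes, 46 of 53 lay above Control with DES (median 0.14), and of the further S phase genes, 30 of 37 (median 0.11). Markers of some cell types lay above Control as well: 9 of 10 for urogenital epithelium (median 0.12), 10 of 10 for smooth muscle (0.28) and 9 of 9 for squamous epidermis (0.44). So did 9 of 13 for skeletal muscle (0.03), 3 of 5 for mesenchyme (0.03) and 3 of 4 for gonad (0.15). Others lay mostly below: endothelial 7 of 9 (-0.10), neuron and glia 5 of 7 (-0.14), fibroblast matrix 6 of 9 (-0.04), erythroid 4 of 5 (-0.10) and leukocyte 6 of 11 (-0.04). Of all these markers 0 were called, and their part in the cell cycle values was not tested. By age, the median difference of the 49 genes was 0.08 (E17), 0.09 (E18) and 0.16 (P0), against 0.01, 0.05 and 0.01 over all genes.

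The genes with the largest DES values were Cdc6, Ccne2, Kif11 and Cdt1. Cdc6 averaged 134 ± 51.8 in Control and 192 ± 30.3 with DES (SD, n = 3 arrays), a difference of 0.57 ± 0.18 (limma adjusted p = 0.776). Ccne2 averaged 329 ± 114 and 429 ± 43.5, a difference of 0.44 ± 0.15. Both were higher with DES at each age, and both rested in part on Control P0, without which they were 0.33 and 0.28, as Cdt1 moved from 0.28 ± 0.09 to 0.19.

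Kif11, a motor that pushes the spindle poles apart, had 451, 439 and 407 in Control (E17, E18 and P0) and 540, 566 and 513 with DES. These 6 values did not overlap, and the difference was 0.32 ± 0.10 with a 95% interval of 0.09 to 0.55, yet the adjusted p was 0.776. It was 0.18 when all its probe sets were averaged. With BPA the signals of Kif11 were 496, 522 and 391.

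**Figure D5:**
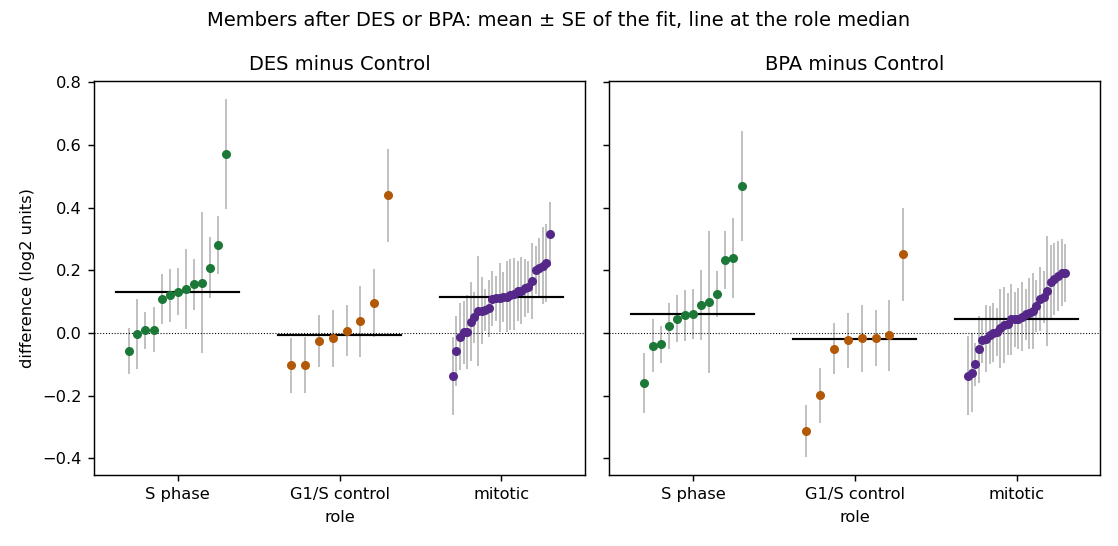
Fitted difference from Control (log2 units, vertical) of each of the 49 cell cycle genes after DES (left) and BPA (right), grouped by role and sorted within it, with the SE as a bar and a horizontal line at the role's median. With DES the S phase and mitotic medians lie at 0.13 and 0.11, with BPA at 0.06 and 0.05, and the G1/S medians lie at 0.00 and -0.02.

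With BPA the 49 genes stood closer to Control. Of these, 32 lay above, with a median of 0.04 against 0.01 over all genes, and 0 were called, where 0.0149% of all genes were (smallest adjusted p 0.363 by limma). At an unadjusted p under 0.05, 2 were higher and 2 lower, against 4.41% and 3.88% of all genes. The median was 0.00 without the BPA P0 array, the array with the high epidermis and gonad markers, and 0.00 with all probe sets of each gene averaged. By age, the median BPA difference was 0.017 (E17), -0.004 (E18) and 0.146 (P0), against -0.011, 0.002 and 0.027 over all genes. At P0 this was near the DES median of 0.164, and both rest on the single Control P0 array. BPA lay above Control at each age for 9 of 49 genes, against 16% of all genes, and below at each age for Cdk2, Mki67 and Birc5, against 14.7%. Smooth muscle markers (10 of 10 named) summed to 40973 to 45627 on the BPA arrays and 26217 to 42658 on the Control arrays, and lay above Control for 10 of 10 (median 0.72). Squamous epidermis markers lay above for 9 of 9 (8 at an unadjusted p under 0.05), and skeletal muscle markers lay below for 11 of 13 (median -0.59, 10 at an unadjusted p under 0.05). None of these was called, and their part in the cell cycle values was not tested.

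The largest BPA values were those of Cdc6, Cdk2, Ccne2 and Mcm10. Cdc6 averaged 134 ± 51.8 in Control and 178 ± 21.8 with BPA, a difference of 0.47 ± 0.18 (limma adjusted p = 0.503) that was 0.23 without Control P0. Cdk2 averaged 1056 ± 116 and 856 ± 159, a difference of -0.31 ± 0.08 with a 95% interval of -0.50 to -0.13 (limma adjusted p = 0.363), and was lower with BPA at each age. Ccne2 averaged 329 ± 114 and 385 ± 109, a difference of 0.25 ± 0.15 that was 0.09 without Control P0. Mcm10 (0.24 ± 0.13) and Cdt1, next in size (0.23 ± 0.09), each became 0.14 without that array, and Mcm10 was 0.068 with all its probe sets averaged.

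Set directly against DES, BPA gave lower values for 33 of 49 genes, against 7273 of all 13400, and 0 were called (0% of all genes). At an unadjusted p under 0.05, Mcm4 (-0.37 ± 0.10), Cdk2 (-0.29 ± 0.08), Cdca8 and Mki67 (-0.17 ± 0.07) were lower with BPA, 4 genes of 49 against 4.69% of all genes, and 0 were higher, against 3.12%. Mcm4 averaged 2048 ± 439 with DES and 1609 ± 454 with BPA, and Mki67 2110 ± 179 and 1869 ± 118. The smallest limma adjusted p was 0.515, so the agents were not told apart in these genes at this number of arrays, which does not show that they act alike.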

How the data were processed

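RNA from the urogenital sinus was hybridised to 9 Affymetrix arrays, 1 for each of 3 agents at 3 ages. The deposited values are linear probe set intensities. The submitters' processing notes name MAS5, and its version and scaling are not given in the sources used here. The trimmed mean (2% cut at each end) of the deposited intensities ran from 157 (BPA P0) to 277 (DES E17), so quantile normalisation was the main setting. The platform annotation supplied gene names (34958 of 45101 probe sets had 1 symbol). Ccnb1 and some markers of the mesenchyme were not analysed here. The pseudocount was the 10th percentile of all values, and genes were tested if their mean log2 value reached the 40th percentile (a signal of 41.2). The model (limma 3.58.1, R 4.3.3, intensity trend) had 4 residual and 6.18 prior degrees of freedom and was tested on simulated data. P-values were adjusted by Benjamini-Hochberg over all 13400 genes, two-sided, with a threshold of 0.05.

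The members and lists were chosen with earlier results of these data known. Values are given for members that passed in any comparison, for the 4 largest and 2 smallest P0 minus E17 differences of each role, for the 4 largest differences per agent, and for the 2 largest in each list of related genes; promoters are printed for 2 S phase and 2 mitotic genes. Other members are summarised. Alternatives covered scaling, pseudocount, filter, choice of probe set, spread model and arrays left out. The number of arrays limits the precision.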

Additional observations from a re-analysis of the deposited data

How the results depend on the processing

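Directions held more widely than calls. In all 22 alternatives the median P0 minus E17 difference of all 49 genes, and of each role, stayed below 0, and 0 genes were called for DES or BPA against Control in any of 20. The count of genes past the threshold at P0 against E17, 1 in the fit reported, was 5 on the values as deposited (Mcm4, Cdc6, Cdk2, Ccne2 and Bub1, with 5.4% of all genes called). The count was 2 without all 3 DES arrays (Ccne2 and Bub1), where 2.15% of all genes were called. It was 0 without a filter, without the intensity trend, with both the BPA P0 and the DES E17 array left out, without all 3 Control arrays and without all 3 BPA arrays. Leaving out 1 array gave 0 to 9 genes. The 9 came without DES P0 (Mcm4, Mcm5, Mcm6, Rrm2, Cdk2, Ccne2, Top2a, Bub1 and Cenpf), where 8.63% of all genes were called, and 0 came without any of the 7 arrays whose removal ended the call on Mcm4. Against E18, leaving out 1 array gave 0 to 5 genes, the 5 again without DES P0 (Mcm5, Rrm2, Ccne2, Top2a and Bub1), where 3.81% of all genes were called. The cause of these changes was not tested.

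On the values as deposited the medians at P0 against E17 were -0.50 (S phase), -0.43 (mitotic), -0.39 (G1/S) and -0.45 (all 49), where the median of all genes was itself -0.29; against E18 the median was -0.36 (all genes -0.18). The same scaling gave -0.21 for BPA (all genes -0.24) and 0.20 for DES (all genes 0.11) against Control. The G1/S median was -0.19 without all Control arrays and -0.071 without all DES arrays, and the DES median was 0.065 with all probe sets averaged. With 1 array left out, the median at P0 against E17 ran from -0.25 to -0.12 (S phase, the latter without Control P0), -0.16 to -0.12 (mitotic), -0.17 to -0.080 (G1/S, without Control P0 and without DES P0) and -0.17 to -0.13 (all 49), that against E18 from -0.22 to -0.17, that for DES from 0.07 to 0.12, that for BPA from 0.00 to 0.06, and the S phase minus mitotic gap from -0.11 to 0.01. The labels give no replicate numbers, and each agent and age had 1 array, so arrays were matched by agent and age alone. Age was a factor in the fits of age and agent differences, and a straight line in the test of slopes.

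Of 51 further probe sets of these genes past the filter, 38 lay below 0 at P0 against E17, and 35 had the sign of the chosen one. With 1 array for each agent and age, a difference within an agent has no replicate, and the test of age slopes assumes a straight line over the 3 ages.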
